A study of Mus musculus with 2 samples.

Results

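The clustered protocadherin genes PCDHA, PCDHB and PCDHG lie side by side on chromosome 5 of the human build hg19, and H2BK120ub peaks over them were compared in WT and UBR7-deficient liver cells. H2BK120ub is histone H2B carrying a single ubiquitin on lysine 120. It was measured by ChIP-seq, the sequencing of DNA pulled down with an antibody against the mark. Members were all peaks on chromosome 5 that overlapped positions 140165000 to 140893000 by at least 1 bp. The rule used position alone and took 66 of the 101866 WT peaks and 68 of the 127444 UBR7-KO peaks, 134 of 229310 in all. The block of 728 kb was divided into the PCDHA part (chr5:140165000-140400000, 235 kb), the PCDHB part (chr5:140400001-140700000, 300 kb) and the PCDHG part (chr5:140700001-140893000, 193 kb), and 1 Mb on each side served as flanks.

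The first library came from wild type mouse liver primary cells. The second came from liver primary cells of Alb-Cre;UBR7fl/fl mice, in which the albumin promoter drives Cre in hepatocytes and Cre deletes the floxed UBR7 gene, called UBR7-KO here. Liver cells of other types keep UBR7 in this model. The study's methods describe cells from young adult mice of both genotypes, whereas the labels describe conditionally immortalized cells kept in culture, and no agent distinguished the groups. Each genotype had 1 library, so every difference given here is a difference between 2 libraries, without replicate error and without a test. How many reads stand behind each list is unknown. The samples are labelled as mouse, but the positions are those of hg19, and 0 peaks of either list lay outside its chromosomes. The lists hold no gene names, so neither the liver identity of the cells nor the loss of UBR7 was checked.

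The clustered protocadherins are cell adhesion proteins of the cadherin family, best known from neurons, where each cell uses its own mixture of them on its surface. The PCDHA and PCDHG clusters each consist of a row of large variable exons, every one with its own promoter, which are spliced to a few shared constant exons at the end of the cluster. PCDHB genes are made of a single coding exon each, and every gene has its own promoter. Promoters within the clusters are chosen with the help of CTCF and cohesin, which fold the DNA into loops. Protocadherins of the clusters are not known as typical hepatocyte genes. H2BK120ub is placed mainly by the ligase pair RNF20 and RNF40 and accompanies transcription through gene bodies. UBR7, a ligase with a PHD finger, can also place it. A mouse gene table listed 14 Pcdha genes, 22 Pcdhb genes and 22 Pcdhg genes in the same order as the parts used here. Since an hg19 annotation was not used here, peaks were not assigned to single protocadherin genes, and no sequence is shown. Protocadherin genes of a cluster are close copies of each other and the handling of reads that match several copies is not stated, so a peak could hold reads of a neighbouring copy, which was not tested.

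The clusters were dense in peaks in both libraries and less covered in UBR7-KO. Peaks covered 176.9 kb in WT, or 24.3% of the clusters, and 149.3 kb in UBR7-KO, or 20.5%, a ratio of 0.844. The ratio was 0.852 among peaks whose pileup reached 3 times the background and 0.644 with lists of equal size. It fell to 0.108 with a fold enrichment of at least 2.5, a limit that is stricter for UBR7-KO. Peak numbers were nearly the same, 66 and 68, a ratio of 1.03, and the limit on pileup gave 1.09. The ratio of peak numbers turned to 0.818 with both lists limited to the same size. With the same limit on fold enrichment it was 0.148. Over all chromosomes that limit kept 17185 peaks in WT and 12452 in UBR7-KO, against 27 and 4 in the clusters. The limit on pileup kept 25796 and 57216 over all chromosomes, against 34 and 37 in the clusters. How far the stricter limit accounts for the fall in the clusters was not tested. As listed, the WT density was 90.7 peaks per Mb and the UBR7-KO density 93.4. In both flanks together the densities were 58 and 59.5, and over all chromosomes 32.9 and 41.2. Peaks of either library covered 34.1% of the clusters, and 31.4% of that length was covered in both.

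In the lists as deposited, the flanks differed more between the libraries than the clusters did. The covered share of the flanks was not recomputed with limits on the peaks or on list size. WT peaks covered 25.1% of the flanks and UBR7-KO peaks 15.4%, a ratio of 0.614. On the left the ratio was 0.770, and on the right it was 0.473. The share of the clusters thus lay just below that of the flanks in WT and above it in UBR7-KO. The order in WT turned with flanks of 2 Mb, where the clusters were covered 1.12 times as much as the flanks. The rest of chromosome 5 was covered to 8.22% in WT and 8.39% in UBR7-KO, a ratio of 1.02. Over all chromosomes the shares were 11.6% and 10.3%, a ratio of 0.885.

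**Figure D1:**
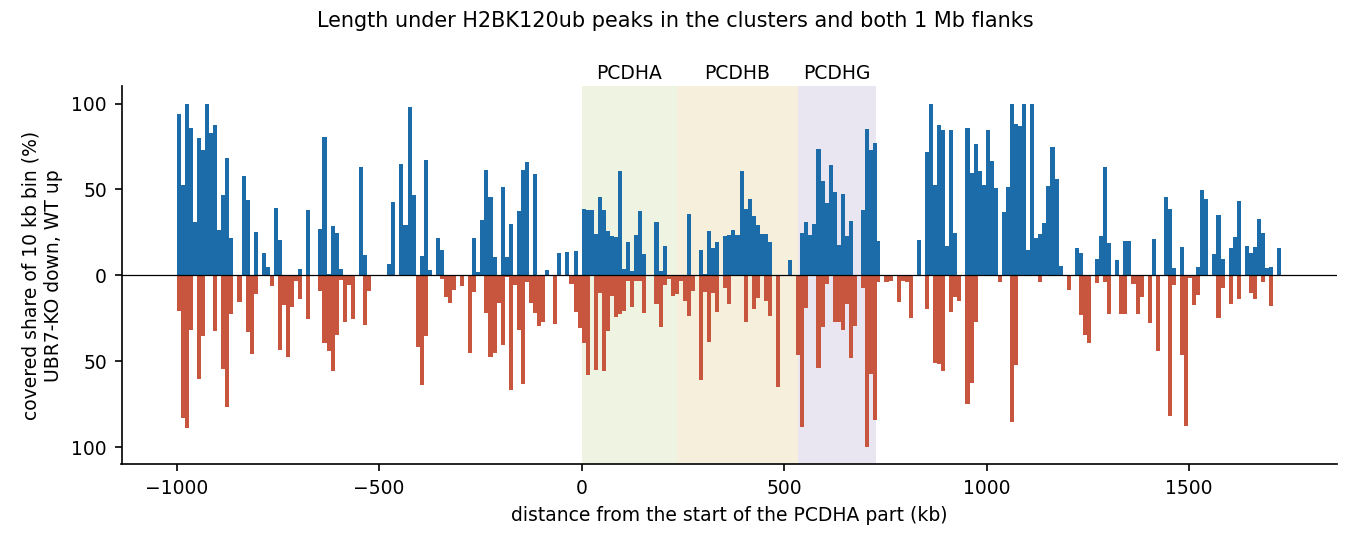
Covered share (%) of consecutive 10 kb bins against the distance (kb) from the start of the PCDHA part, with WT drawn upward and UBR7-KO downward and the 3 protocadherin parts shaded. Bins in the clusters are mostly covered in both libraries, 45 of 73, whereas the right flank has 30 of 100 such bins and a series of bins near 100% in WT.

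In the lists as deposited, the PCDHG part was the most covered of the parts. It was covered to 39.9% in WT and 32.8% in UBR7-KO, a ratio of 0.820, and with lists of equal size the UBR7-KO share fell to 20.6% and the ratio to 0.515. The PCDHA part followed with 21.5% and 19.0% (ratio 0.887), and the PCDHB part came last with 16.4% and 13.8% (ratio 0.838). Each part was thus less covered in UBR7-KO among the peaks as listed, whereas among peaks whose pileup reached 3 times the background the ratio in PCDHG was 1.07. The order of the parts also changed with such limits. With a fold enrichment of at least 2.5, PCDHA was covered more than PCDHG, 13.6% against 9.56% for WT and 1.64% against 0.945% for UBR7-KO. With a pileup of 3 times the background it was so for WT, 13.6% against 11.1%, but not for UBR7-KO, 8.89% against 11.9%. Peak numbers as listed went from 19 in WT to 24 in UBR7-KO in PCDHA and from 20 to 24 in PCDHB, but from 27 to 20 in PCDHG. These directions depended on the peaks kept. With a fold enrichment of at least 2.5 the numbers went from 12 to 1, from 5 to 1 and from 10 to 2. Among peaks whose pileup reached 3 times the background they were 12 and 12, 11 and 14, and 11 and 11. Lists of equal size gave a ratio of 0.9 in PCDHB, and merging peaks within 5000 bp gave 1.14 in PCDHG. As listed, PCDHG had 140 and 104 peaks per Mb, the highest density of the parts in each library. The gaps between neighbouring peaks followed the same order. In PCDHG the median gap was 2586 bp for WT and 4238 bp for UBR7-KO, in PCDHA it was 5296 and 5243 bp, and in PCDHB 7053 and 8412 bp. Of the 10 kb bins, both libraries had a peak in 14 of 19 in PCDHG, 18 of 24 in PCDHA and 13 of 30 in PCDHB. Bins with WT alone numbered 3, 1 and 6 in the same order, and bins with UBR7-KO alone 1, 3 and 5. Neither library reached 1 bin of PCDHG, 2 of PCDHA and 6 of PCDHB.

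Chromosome 5 was next cut into 247 windows of the length of the clusters, with the clusters as 1 of them. By covered share the clusters ranked 21st in WT and 20th in UBR7-KO, where the median windows were covered to 3.95% and 5.40%. By number of peaks they ranked 4th in WT, with 66 peaks against a median of 22. In UBR7-KO they ranked 1st, with 68 peaks against a median of 29. The ratio of covered lengths, 0.844, ranked 192nd from the top of the 243 windows with a ratio, below the lower quartile of 0.893 and a median of 1.27. Most windows had a low WT share, with an upper quartile of 7.98%. The other windows with WT shares of 20.9% to 29.5%, a range chosen after the values were seen, had ratios of 0.473 to 0.867. Only the highest of these exceeded the ratio of the clusters. Windows of 1 chromosome share the depth of their library, and their order is given as a description.

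**Figure D2:**
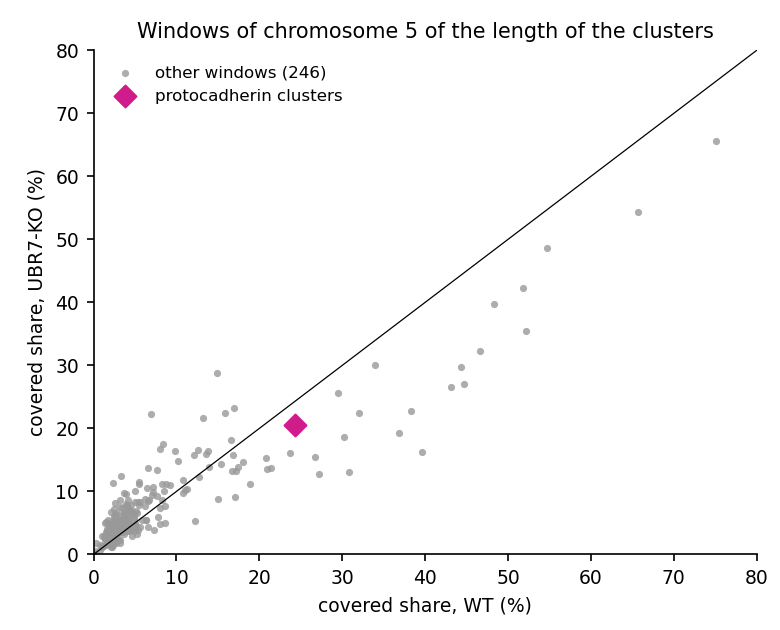
Covered share (%) of each of the 247 windows of chromosome 5 in WT (horizontal) and UBR7-KO (vertical), with the protocadherin clusters as a diamond and a line at equal shares. The clusters, at 24.3% and 20.5%, stand right of the cloud of low windows and below the line.

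WT peaks in the clusters were of more even length than UBR7-KO peaks. The median length was 2404 bp in WT, with quartiles of 1935 and 3153 bp, and 1688 bp in UBR7-KO, with quartiles of 816 and 2587 bp. The ratio of medians was 0.702, against 0.859 over all peaks, whose medians were 1585 bp and 1362 bp. Merging peaks within 5000 bp of each other turned the ratio in the clusters to 1.09. In the flanks the medians were 2988 bp and 2000 bp, but the WT quartiles there were 1344 and 6309 bp. Between 2 and 4 kb lay 40 of 66 WT members, or 60.6%, against 19.8% of all WT peaks. The same class held 22 of 68 UBR7-KO members, or 32.4%, against 19.7% of all UBR7-KO peaks. In the flanks it held 26.7% and 31.1%. This class was chosen after the lengths were seen. Under 1 kb lay 7 WT members (10.6%), against 35.1% of all WT peaks and 18.1% of those in the flanks. For UBR7-KO it was 22 members (32.4%), against 39.3% of all UBR7-KO peaks and 29.4% of those in the flanks.

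The narrow range of lengths was clearest in PCDHA. There, 15 of 19 WT peaks were 2 to 4 kb long and none was under 1 kb, with a range of 1021 to 4747 bp. Of the 24 UBR7-KO peaks in PCDHA, 8 were in that class, with a range of 315 to 5515 bp over all 24. Under 1 kb were 8 (33.3%), against 39.3% of all UBR7-KO peaks. In PCDHB the class held 10 of 20 peaks of WT and 8 of 24 of UBR7-KO. In PCDHG the numbers were 15 of 27 and 6 of 20. Median lengths were 2425, 2315 and 2466 bp in WT for PCDHA, PCDHB and PCDHG, so they hardly differed between the parts. In UBR7-KO they were 1577, 1437 and 1981 bp. Among members, only UBR7-KO had peaks over 10 kb, 2 in number, and both were in PCDHG. Outside the clusters such lengths were commoner in WT, and the flanks held 11 in WT against 1 in UBR7-KO. The entire WT list held 7721 among 101866, and that of UBR7-KO 4779 among 127444.

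**Figure D3:**
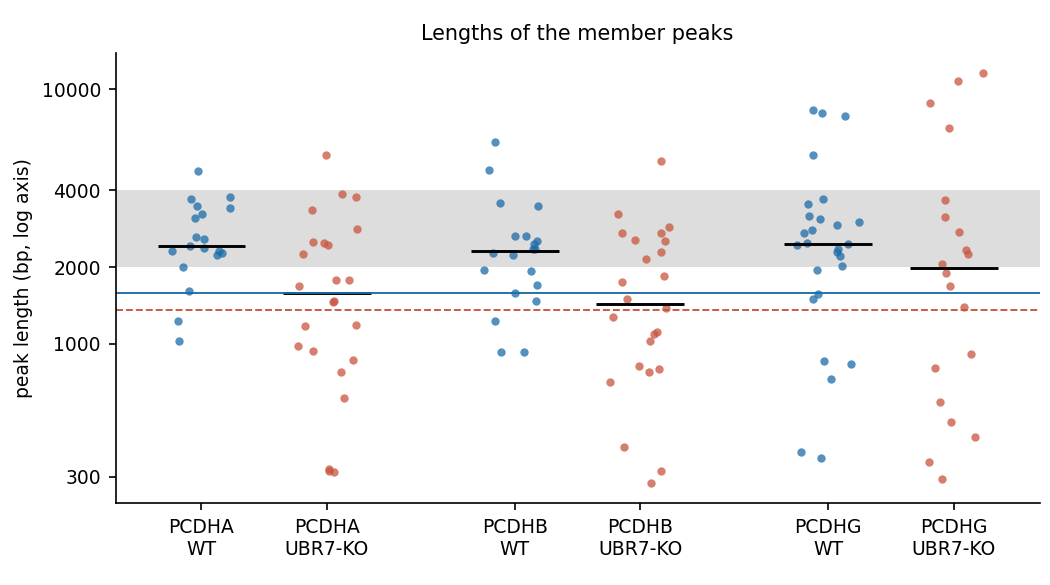
Length in bp (log axis) of every member peak by part and library, with black bars at the medians, the class of 2 to 4 kb in grey, and the median of all WT peaks (solid line) and all UBR7-KO peaks (dashed line). WT points gather in the grey band in each part, and UBR7-KO points reach from 285 to 11545 bp.

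In PCDHA, WT peaks formed a row over the first part of the cluster. From chr5:140165788 to chr5:140276923, over 111.1 kb, 14 WT peaks followed each other with gaps of at most 15 kb, a limit set after the values were seen. Of these, 13 were 2 to 4 kb long, and the median distance from start to start was 7108 bp, with a range of 3487 to 15796 bp. Their fold enrichment, the ratio of pileup to local background given by the peak caller, ran from 2.25 to 3.51 with a median of 2.94, where the median of all WT peaks was 2.20. UBR7-KO had 15 peaks in the same stretch. They were 323 to 5515 bp long with a median of 2245 bp and covered 29.7% of it, against 33.9% for WT. A stretch bounded by the peaks of 1 library favours that library in covered share, so such shares are given as a description, and rows bounded by UBR7-KO peaks are given beside them. In PCDHA the UBR7-KO row chr5:140165800-140182654 was covered to 57.8% by UBR7-KO and 43.2% by WT, and the UBR7-KO row chr5:140198145-140317186, of 17 peaks, to 23.7% and 27.4%.

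The row included the highest WT values of PCDHA. At chr5:140255158-140257540 a WT peak of 2383 bp had a pileup of 9.83 and a fold enrichment of 3.51, rank 378 of all WT peaks. Its UBR7-KO counterpart, of 2245 bp at chr5:140255143-140257387, had a start shift (UBR7-KO minus WT) of -15 bp, an end shift of -153 bp and a fold enrichment of 2.41, rank 18921 in its own list. The first peak of the part was almost the same interval in both libraries. It spanned chr5:140165788-140169018 in WT (3231 bp, fold enrichment 3.36) and chr5:140165800-140169155 in UBR7-KO (3356 bp, 2.24), and these intervals overlapped by 3219 bp.

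The 3 longest WT peaks of PCDHA had no counterpart. They were 4747 bp at chr5:140303992-140308738, 3780 bp at chr5:140185497-140189276 and 3684 bp at chr5:140260493-140264176, and the nearest UBR7-KO peaks lay 3608, 2842 and 1655 bp away. The longest of them was also weak, with a fold enrichment of 2.07. In contrast, the 3 longest UBR7-KO peaks of PCDHA each met a WT peak. The longest, 5515 bp at chr5:140198145-140203659, held nearly all of a WT peak of 2425 bp, with an end shift of -58 bp and a start shift of -3148 bp. The second, 3863 bp at chr5:140174399-140178261, had the highest UBR7-KO fold enrichment of the part, 2.62, and met a WT peak of 3410 bp with a fold enrichment of 2.28. The third, 3779 bp at chr5:140219502-140223280, met a WT peak of 2636 bp.

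Beyond the row the PCDHA part was thinly covered. WT had 5 further peaks there, with fold enrichments of 2.03 to 2.36. A stretch of 23.7 kb from chr5:140322184 to chr5:140345847 held no peak in either library. From chr5:140366732 to chr5:140430837, across the border of PCDHA and PCDHB, WT had no peak over 64.1 kb, its longest gap in the clusters. UBR7-KO had 4 peaks of 317 to 1498 bp in that stretch, which covered 4.37 kb of it.

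PCDHB carried the WT peak with the highest fold enrichment and pileup of the clusters, and it had no UBR7-KO counterpart. This peak, 2356 bp at chr5:140552498-140554853, had a pileup of 11.13 and a fold enrichment of 3.53, rank 353 of all WT peaks. The nearest UBR7-KO peak was 13192 bp away. By the plain ratio of pileup to background, the PCDHA peak at chr5:140255158-140257540, which had a counterpart, stood higher, 4.71 against 4.57. The PCDHB peak stood in a stretch of 33.2 kb, chr5:140534849-140568045, where UBR7-KO had no peak and WT had 3 peaks wholly inside, of 2356 to 6199 bp. The longest of these, 6199 bp at chr5:140558938-140565136, had a fold enrichment of 2.33, had its nearest UBR7-KO peak 2909 bp away, and was also the longest WT peak of PCDHB. The next longest, 4817 bp at chr5:140580553-140585369, had no counterpart either, with the nearest UBR7-KO peak 2979 bp away. The third in length, 3584 bp at chr5:140430838-140434421, met UBR7-KO peaks of 1740 and 776 bp, of which the shorter, at chr5:140434350-140435125, had the highest UBR7-KO fold enrichment of PCDHB, 2.58.

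A second row of WT peaks ran through the middle of PCDHB. It held 17 peaks over 152.6 kb, from chr5:140474931 to chr5:140627519, with lengths of 932 to 6199 bp, a median of 2356 bp and a median distance from start to start of 8287 bp. WT peaks, which bound the row, covered 28.4% of it, and UBR7-KO peaks, 12 in number with a median of 1615 bp, covered 12.7%. A row of 6 UBR7-KO peaks at chr5:140455824-140498899 was covered to 32.9% by UBR7-KO and 13.1% by WT. UBR7-KO also covered more of its rows chr5:140384767-140437125 (14.7% against 6.85%) and chr5:140645361-140654521 (70.6% against 0). WT covered more of the UBR7-KO rows chr5:140588349-140627341 (32.5% against 18.2%) and chr5:140516527-140534848 (17.5% against 12.9%). Outside the row of 17 WT peaks, WT had 3 peaks in PCDHB and UBR7-KO had 12. The longest UBR7-KO peak of the part was one of them, 5195 bp at chr5:140645361-140650555, with a fold enrichment of 2.17 and the nearest WT peak 17841 bp away. It lay in a stretch of 55.6 kb with no WT peak, chr5:140627520-140683147. The second longest, 3243 bp at chr5:140460283-140463525, had no counterpart, and the third, 2873 bp at chr5:140455824-140458696, met a WT peak of 1475 bp whose start lay 32 bp before its own. A stretch of 28.6 kb, chr5:140654522-140683147, was empty in both libraries and was the longest such stretch of the clusters.

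PCDHG held the densest row of WT peaks and the longest peaks of both libraries. From chr5:140710066 to chr5:140829813, over 119.7 kb, WT had 21 peaks with a median distance from start to start of 5105 bp and a median length of 2364 bp, and 13 of them were 2 to 4 kb long. WT peaks, which bound this row, covered 42.8% of it, and 11 UBR7-KO peaks covered 24.4%. Of the rows bounded by UBR7-KO peaks, chr5:140787119-140843920, with 11 peaks, was covered to 31.8% by UBR7-KO and 29.3% by WT, and chr5:140695442-140720935, with 4 peaks, to 60.2% and 21.9%. Another such row, chr5:140749601-140769252, with 3 peaks, went the other way, with 45.3% for UBR7-KO and 59.3% for WT. The row of 21 WT peaks contained a stretch of 28.7 kb, chr5:140720936-140749600, with 3 WT peaks of 1951 to 3534 bp and no UBR7-KO peak. In the other direction, WT had no peak from chr5:140829814 to chr5:140855247, over 25.4 kb, where UBR7-KO had 5 peaks of 295 to 2058 bp.

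The highest values of PCDHG belonged to short peaks. In WT the highest fold enrichment was 2.88, at chr5:140802293-140803128 (836 bp), overlapping a UBR7-KO peak of 2256 bp. In UBR7-KO it was 2.79, at chr5:140798773-140799204 (432 bp), which was also the highest of all 68 UBR7-KO members, with rank 3266 in its list. It overlapped a WT peak of 853 bp with a fold enrichment of 2.64.

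The longest peak of each library lay at the end of PCDHG, the side where the constant exons of such a cluster stand. The longest UBR7-KO peak, 11545 bp at chr5:140879312-140890856, had a fold enrichment close to the lowest listed, 2, and overlapped WT peaks of 5487 and 7867 bp. The next, 10793 bp at chr5:140864281-140875073, had a fold enrichment of 2.03 and overlapped WT peaks of 2791 and 8293 bp. The WT peak of 8293 bp, at chr5:140868477-140876769, was the longest WT member. The third in UBR7-KO, 8815 bp at chr5:140705709-140714523, stood at the start of the part and enclosed a WT peak of 2494 bp. The second in WT, 8062 bp at chr5:140749987-140758048, met UBR7-KO peaks of 7013 and 1391 bp. The last peak of WT, 7867 bp at chr5:140887153-140895019, ran over the border of the clusters into the right flank, as did a UBR7-KO peak of 912 bp at chr5:140892110-140893021, which it enclosed. From chr5:140855248 to chr5:140895019, the last WT row, WT peaks covered 69.9% and UBR7-KO peaks 58.5%. From chr5:140864281 to chr5:140893021, the last UBR7-KO row, they covered 79.2% and 80.9%. A 10 kb bin there reached 85.3% in WT and 100% in UBR7-KO, the highest bin of the clusters in each.

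**Figure D4:**
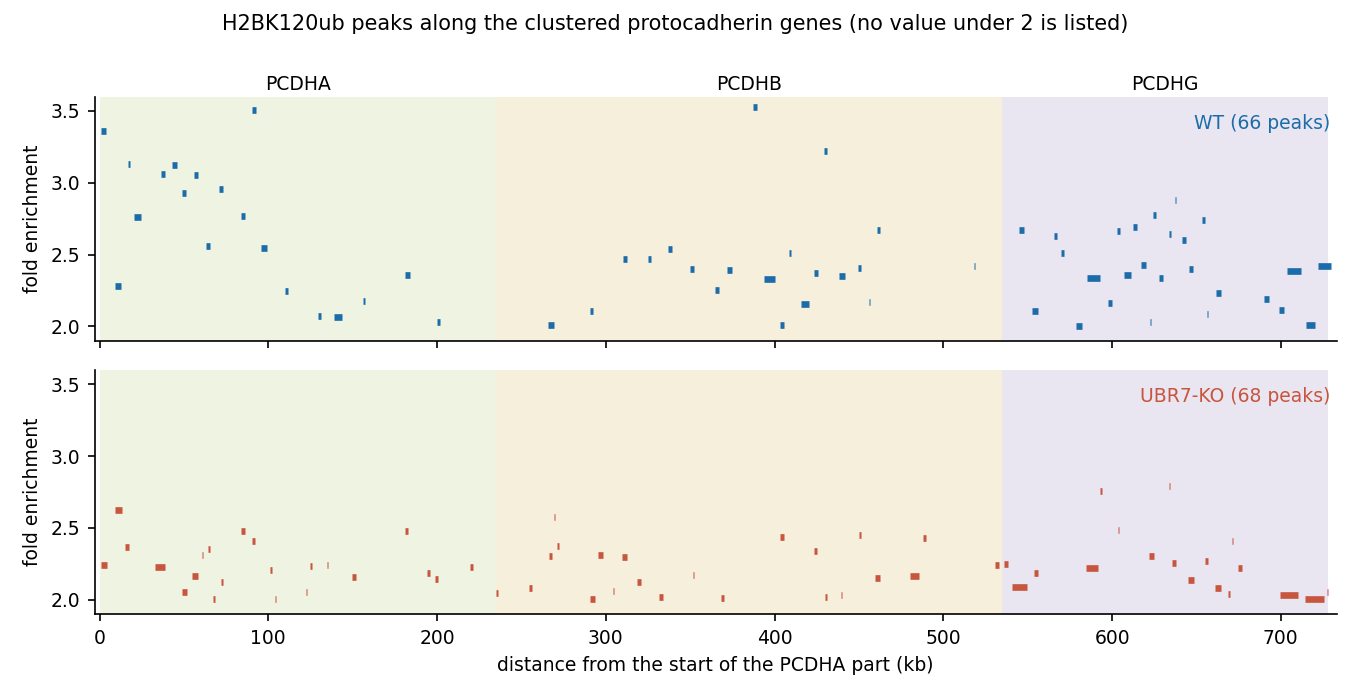
Fold enrichment of each member peak (vertical, no value under 2 is listed) against the distance (kb) from the start of the PCDHA part, each bar as long as its peak, WT above and UBR7-KO below. WT peaks of the first 111.1 kb lie at 2.25 to 3.51, and the highest UBR7-KO peak lies at 2.79. Heights depend on depth and on how the caller computes the ratio, so they are read within each library only.

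By an overlap of 1 bp, members met the other library more often than peaks in general. Of the WT members, 39 of 66 overlapped a UBR7-KO peak by at least 1 bp, or 59.1% (95% Wilson interval 47.0% to 70.1%), against 40.2% of all WT peaks. Of the UBR7-KO members, 39 of 68 overlapped a WT peak, or 57.4% (45.5% to 68.4%), against 35.2% of all UBR7-KO peaks. In the flanks the shares were 36.2% (28.0% to 45.3%) and 37.8% (29.6% to 46.8%). These intervals express counting error alone and treat neighbouring peaks as independent. Longer or denser peaks meet others more often by their geometry, so shares were also taken within the class of 2 to 4 kb. There 25 of 40 WT members had a counterpart, or 62.5%, against 45.5% of all WT peaks of that class. For UBR7-KO it was 15 of 22, or 68.2%, against 43.6%. WT members over 4 kb went the other way, with 4 of 7, or 57.1%, against 70.2% of such WT peaks, and for UBR7-KO it was 5 of 6, or 83.3%, against 73.5%. Under 1 kb, 9 of 22 UBR7-KO members had a counterpart, or 40.9%, against 19.0% of such peaks in the list. The density of peaks was not held fixed in these shares. With an overlap of 50% of both peaks, 19 members of each library had a counterpart, 28.8% for WT against 15% of all WT peaks and 27.9% for UBR7-KO against 12% of all UBR7-KO peaks. With both lists limited to a fold enrichment of at least 2.5 the WT share lay below its list, 3.70% of 27 members against 8.4%, while that of the 4 UBR7-KO members was 25% against 11.7%.

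By the 1 bp rule on the lists as deposited, each part had a share of 50% or more in both libraries. Lists of equal size gave 40% of WT peaks in PCDHB and 48.1% in PCDHG, an overlap of 50% of both peaks gave 18.5% to 42.1% over the parts and libraries, and with a fold enrichment of at least 2.5 the share was 0 in PCDHA and PCDHB. As deposited, a counterpart was found in PCDHA for 12 of 19 peaks of WT (63.2%) and 13 of 24 of UBR7-KO (54.2%). In PCDHB it was 11 of 20 and 12 of 24, 55% and 50%. In PCDHG it was 16 of 27 and 14 of 20, 59.3% and 70%. By length, PCDHB shared the least: 31.0% of its WT covered length and 37.0% of its UBR7-KO covered length lay under peaks of both, against 46.8% and 52.8% in PCDHA and 50.7% and 61.8% in PCDHG. Over all chromosomes these shares were 40.5% and 45.7%.

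Unmatched members differed in length between the libraries. The 27 WT members without a counterpart had a median length of 2364 bp and the 39 with one 2425 bp. The 29 UBR7-KO members without a counterpart had a median of 1176 bp and the others 2245 bp. This held in PCDHA (978 and 2445 bp) and PCDHG (699 and 2498 bp) but not in PCDHB (1437 and 1426.5 bp). For WT, unmatched members were longer in PCDHA (3460 and 2404 bp) and shorter in PCDHB (1930 and 2359 bp) and PCDHG (2452 and 2480 bp). In the entire UBR7-KO list, 19.0% of peaks under 1 kb and 73.5% of those over 4 kb had a counterpart. The nearest peak of the other library was 979 to 13192 bp from the unmatched WT members, with a median of 2979 bp. For the unmatched UBR7-KO members it was 1353 to 29559 bp away, with a median of 4033 bp.

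Where a WT peak met a single UBR7-KO peak and the reverse, edges could be compared. There were 28 such pairs, 11 in PCDHA, 10 in PCDHB and 7 in PCDHG. The starts lay within 100 bp of each other in 9 pairs, or 32.1%, against 16.5% of 29927 pairs over all chromosomes and 3 of 32 pairs in the flanks. These were 5 of 11 pairs in PCDHA, 4 of 10 in PCDHB and 0 of 7 in PCDHG. From WT to UBR7-KO the 5 starts in PCDHA moved by 12, 41, 43, -15 and -25 bp, and the 4 starts in PCDHB by 32, -88, -9 and -16 bp, so neither direction prevailed. The ends lay within 100 bp in 4 pairs, or 14.3%, against 16.3% of all pairs. The order of starts and ends turned with a tolerance of 200 bp, which 39.3% of starts and 50% of ends met, against 27.9% of starts and 27.7% of ends over all pairs. The median distance between ends was 215.5 bp in the clusters, against 574 bp in the flanks and 649 bp over all pairs. Between starts it was 647 bp in the clusters and 647 bp over all pairs. The tolerance of 100 bp was set after the values were seen. UBR7-KO peaks were the longer ones in 14 of the 28 pairs and WT peaks in 14, whereas WT peaks were longer in 54.7% of all pairs. In PCDHA the UBR7-KO peak was longer in 7 of 11 pairs, in PCDHB in 3 of 10 and in PCDHG in 4 of 7.

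**Figure D5:**
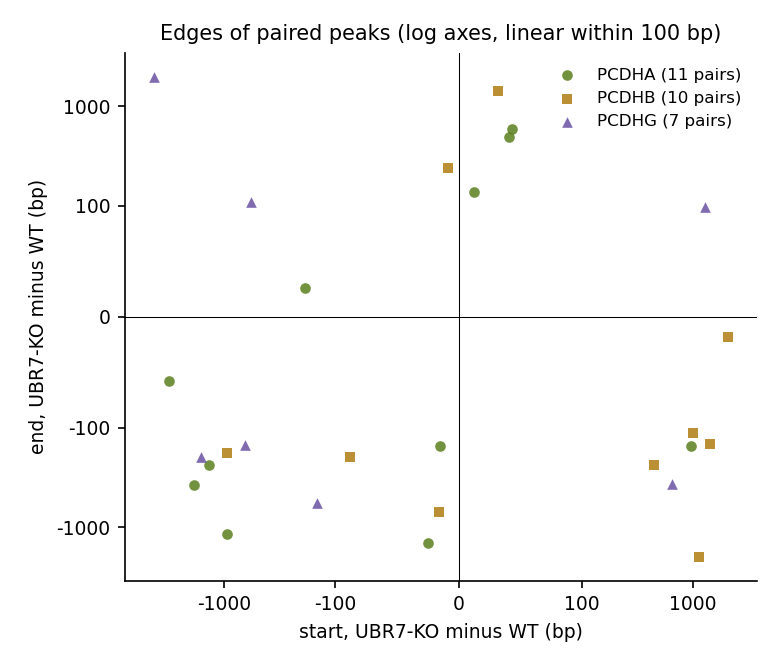
Shift of the start (horizontal) and of the end (vertical) from the WT to the UBR7-KO peak, in bp, for the 28 pairs, on log axes that are linear within 100 bp. The points along the vertical line at 0 are PCDHA and PCDHB pairs whose starts lie within 100 bp, and none is a PCDHG pair.

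The fold enrichment of members stood high in the WT list and near the middle of the UBR7-KO list. It was at least 2.5 for 27 of 66 WT members, or 40.9%, against 16.9% of all WT peaks and 10.3% of those in the flanks. In UBR7-KO, 4 of 68 members reached it, or 5.88%, against 9.77% of all UBR7-KO peaks and 7.56% of those in the flanks. The WT members past it were 12 of 19 in PCDHA, 5 of 20 in PCDHB and 10 of 27 in PCDHG. Median values of the parts were 2.76, 2.40 and 2.39 for WT and 2.22, 2.21 and 2.20 for UBR7-KO, so PCDHA stood above the other parts in WT and the parts hardly differed in UBR7-KO. In the order of the WT list the median PCDHA peak stood at 6.32% from the top, and 20 of the 66 members were among the top 10%, 10 of them in PCDHA. In UBR7-KO 4 of 68 members were among the top 10%, and the median member stood at 37.7%. Among peaks of 2 to 4 kb, 17 of 40 WT members reached 2.5, or 42.5%, against 16.2% of the class. In UBR7-KO it was 1 of 22, or 4.55%, against 5.76%. Over 4 kb, 0 of 7 WT members reached it, against 16.3% of such WT peaks, and 0 of 6 UBR7-KO members, against 2.72%.

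These values depend on depth and on how the caller computes the ratio. MACS adds 1 to pileup and background, which lowers the ratio more where both are low. The lowest background recovered, the 1st percentile of a list, was 1.81 for WT and 1.16 for UBR7-KO. At that background a value of 2.5 equals a pileup 3.33 times the background for WT and 3.80 times for UBR7-KO, so it is the stricter limit for UBR7-KO. When the plain ratio of pileup to background was used, 34 of 66 WT members reached 3, or 51.5%, against 25.3% of all WT peaks. In UBR7-KO 37 of 68 reached it, or 54.4%, against 44.9% of all UBR7-KO peaks. In the flanks the shares were 15.5% and 31.9%. By parts, 12, 11 and 11 WT members of PCDHA, PCDHB and PCDHG reached a plain ratio of 3, and 12, 14 and 11 UBR7-KO members did. The median pileup of the members was 7.48 for WT and 4.44 for UBR7-KO. Pileup scales with the unknown depth, so these medians were not compared.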

How the data were processed

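H2BK120ub ChIP-seq was analysed in 1 WT and 1 UBR7-KO library, grouped by the genotype in the labels. Per the study's methods, reads were aligned to human hg19 with BWA aln and peaks were called with MACS in each library independently under a q-value limit whose value is not given. The submitters' processing notes name hg19, FastQC and Bowtie 1.1.2 instead, so the aligner is uncertain. An IgG immunoprecipitation is described, but its use as a control, the mode of the caller and the treatment of duplicate or multiply matching reads are not given in the sources used here. Library making followed a ChIP-seq kit, although the labels give RNA as the molecule. The pileup deposited by the authors is a signal, the fragments stacked over a peak, and it scales with depth. The fold enrichment deposited by the authors is a ratio of pileup to local background, and no value under 2 is listed. An unknown depth limits the precision of both, and the deposited lists hold no p-values.

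The UBR7-KO list had 6 blank rows, which were dropped, and peaks were taken as listed, with positions in hg19 counted from 1. Peaks that cross a border counted as members and were clipped for covered lengths. A counterpart is a peak of the other list overlapping by at least 1 bp. The background was recovered from the fold enrichment as (pileup + 1) / (background + 1), and its floor is the 1st percentile of the list. Shares have 95% Wilson intervals. Peaks named in the text are, per list and part, the 3 longest and the one of highest fold enrichment, every peak over 10 kb and every peak crossing a border, with their counterparts. Other positions, the stretches of at least 20 kb empty in 1 list, the rows of peaks, the length class and the edge tolerance were chosen after the values were seen. The members and lists were chosen with earlier results of these data known. With 1 library per genotype no test was run. Alternatives changed the threshold, list size, merging, borders, flanks, overlap and bins. Genes were not assigned to peaks, because the gene table used is of mouse GRCm38 and served for names and order only. Python 3.11.15 with numpy 2.4.6, pandas 2.3.3, scipy 1.17.1 and matplotlib 3.10.9 and R 4.3.3 with GenomeInfoDb 1.38.1 were used, and interval counts were tested on simulated data against bedtools 2.31.1.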

Additional observations from a re-analysis of the deposited data

How the results depend on the processing

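No paired analysis was possible because WT and UBR7-KO were each measured in 1 library, and no replicate could be left out. The main values were recomputed with 1 choice changed at a time. Window ranks, gaps, rows of peaks and shared lengths were not recomputed. Over the whole clusters, 43 of 75 recomputed values stayed within the limits set for an unchanged value, 29 moved further and 3 ratios turned. Over the parts the numbers were 104, 65 and 8 of 177. For matched shares and shares of members past a threshold, the limits were the Wilson interval of the main value. For other values the limit was a factor of 1.5, and ratios also had to stay on the same side of 1. The ratio of covered lengths over the clusters stayed under 1 in every alternative run for it.

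With a fold enrichment of at least 2.5, WT kept 27 peaks covering 8.19% and UBR7-KO 4 covering 0.888%. The UBR7-KO median length was then 1084 bp and the matched shares were 3.70% of WT and 25% of UBR7-KO peaks. The ratio of peak numbers fell to 0.148, with 0.0833 in PCDHA and 0.2 in PCDHB, the ratio of covered lengths to 0.108, and the ratio of median lengths in PCDHA rose to 1.55. Where the pileup had to reach 3 times the background, WT kept 34 peaks covering 10.7%, 41.2% of them matched, and UBR7-KO 37 covering 9.09%, 37.8% matched, and the ratio of covered lengths in PCDHG was 1.07. The lists limited to equal size gave ratios of peak numbers of 0.818 and, in PCDHB, 0.9. Merging peaks within 5000 bp gave 30 WT and 36 UBR7-KO peaks covering 38.9% and 31.5%, with a UBR7-KO median of 3468 bp and 69.4% of UBR7-KO peaks matched. The ratios of median lengths were then 1.09 in the clusters, 1.15 in PCDHA and 1.09 in PCDHG, and that of peak numbers in PCDHG 1.14.

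An overlap of 50% of both peaks left 28.8% of WT and 27.9% of UBR7-KO members matched, 19 of each, and a midpoint inside the other peak left 43.9% of WT members. With flanks of 2 Mb the clusters were covered 1.12 times as much as the flanks in WT, against 0.970 with 1 Mb. Bins of 5 kb put 39.0% in both lists and 24.7% in neither, and bins of 25 kb put 0 in neither. Chosen after seeing the data were a pileup of 3.5 times the background, which 21.2% of WT and 14.7% of UBR7-KO members reached, and, for the fold enrichment, a pileup of 3 times the background, which 54.4% of UBR7-KO members reached. Also chosen after seeing the data was an edge tolerance of 200 bp, which 50% of ends and 39.3% of starts met, against 14.3% and 32.1% at 100 bp. Lists of equal size moved the PCDHG ratio of covered lengths to 0.515. The cause of these moves was not tested. The unknown depth limits every value that rests on pileup.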
